A study of Mus musculus with 6 samples.

Results

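Genes of cholesterol metabolism were followed in CD8 T cells of the mouse spleen: 18 enzymes of the synthesis pathway, 5 genes of sterol sensing and 6 genes of sterol transport, storage, uptake control and efflux. These 29 genes were taken by symbol from the authors' full table of 17744 genes, and each was listed there. The study compared 3 control libraries with 3 libraries labelled with focused ultrasound irradiation, here called ultrasound libraries, a treatment that concentrates sound waves on a tissue. The control libraries are labelled wt for genotype and control for treatment. The ultrasound libraries carry the ultrasound label in both fields, so their genotype is not otherwise given, and strain, age, dose and interval after treatment are not given in the sources used here. The cells were sorted from spleen as CD45+ CD3+ CD8a+ cells before RNA-seq. The values are FPKM, fragment counts scaled by gene length and library size, so levels can be set side by side between genes.

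Cells make cholesterol from acetyl-CoA through mevalonate, the isoprenoids, squalene and lanosterol. When membrane sterol is low, the escort protein Scap carries the transcription factors Srebf1 and Srebf2 out of the endoplasmic reticulum to be cut and released to the nucleus, where they switch on synthesis genes. When sterol is high, Insig proteins hold Scap back, and the liver X receptors switch on exporters and the degradation of lipoprotein receptors. In T cells, sterol synthesis is known to increase with activation and growth.

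Promoter sequence was read for these genes because Srebf proteins bind sterol regulatory elements, often beside CCAAT boxes that bind the factor NF-Y. RefSeq windows on GRCm38.p6, 300 bases long with 250 before the transcript start and 50 after it, were matched by NCBI Gene number for 24 of the 29 genes. Fdps, Fdft1, Sqle, Stard4 and Abcg1 had no match. The letters TCACNCCAC, where N is any base, were searched on both strands and share no overlap with CCAAT. They were found in 1 of the 24, Hmgcs1, or 4.17%, against 1.35% of 8636 tested genes with a window and 1.24% of all 32851 windows. CCAAT, also searched on both strands, was found for 20 of the 24 genes, or 83.3%, against 43.3% of tested genes. Counted by window, it was in 65.6% of 32 windows of these genes and 37.4% of all windows. A match of letters is a description and not a measured binding site. The rule was to print promoters of genes that passed the test and hold TCACNCCAC. Of the 2 genes that passed, Mvd does not hold it in this window and Fdps was not searched. The promoters shown were therefore chosen after the values were seen: Mvd, which had the smallest p among the 29, and Hmgcs1, which holds TCACNCCAC. The 250 bases before each start are given 5′ to 3′ on the gene's strand, from chr8:122443423-122443672 (minus strand) for Mvd and chr13:119690101-119690350 (plus strand) for Hmgcs1, with the motif letters in capitals.
Mvd: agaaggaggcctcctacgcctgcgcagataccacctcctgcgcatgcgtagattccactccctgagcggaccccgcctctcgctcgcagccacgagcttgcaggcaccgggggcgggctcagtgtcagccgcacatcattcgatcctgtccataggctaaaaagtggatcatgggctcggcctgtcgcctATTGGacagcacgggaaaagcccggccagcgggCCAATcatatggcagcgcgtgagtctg
Hmgcs1: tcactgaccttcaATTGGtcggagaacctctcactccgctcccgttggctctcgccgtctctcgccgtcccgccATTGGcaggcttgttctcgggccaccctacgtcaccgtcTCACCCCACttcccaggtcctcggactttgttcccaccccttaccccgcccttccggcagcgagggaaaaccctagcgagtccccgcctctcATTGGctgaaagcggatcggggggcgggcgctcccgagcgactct
The Mvd sequence holds CCAAT at -27 and its reverse complement ATTGG at -60, counted from the transcript start to the motif's first base. In the Hmgcs1 sequence TCACCCCAC begins at -137, and ATTGG begins at -237, -176 and -45.

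The libraries hold 35024080 to 38113103 reads, as recovered from the deposited values. All 29 genes reached 1 FPKM in all 6 libraries and were tested, with 148 to 11807 reads per gene and library. The mitochondrial share of reads was 2.05% to 2.70% among controls, 2.19% for ultrasound 1, 0.954% for ultrasound 2 and 0.937% for ultrasound 3. The 10 T cell markers were abundant in every library, at a summed 2887 to 3053 FPKM in controls and 2519 to 3360 in ultrasound libraries, and none of the 10 passed the test or reached an unadjusted p under 0.05. Macrophage and monocyte markers (13) summed to 420 to 903 FPKM in controls and 2085 to 3493 in ultrasound libraries, with 6 called higher. Neutrophil markers (10) summed to 189 to 577 FPKM in controls, 2320 in ultrasound 1 and 649 and 682 in ultrasound 2 and 3, with 3 called higher. B cell markers (10) summed to 226 to 353 FPKM in controls, 172 in ultrasound 1 and 892 and 770 in ultrasound 2 and 3, with none of the 9 tested passing or reaching an unadjusted p under 0.05. No marker of these 4 lists was at 0 in any library. Lists for dendritic cells, NK cells, erythroid cells and proliferation were also read and are not reported here. Ultrasound 1 stood apart from ultrasound 2 and 3 in the neutrophil and B cell sums, while in the macrophage and monocyte sum ultrasound 1 and 2, at 2110 and 2085 FPKM, lay below ultrasound 3. In bulk RNA, more cells of a type and more RNA per cell cannot be told apart.

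Among the sterol genes, Mvd and Fdps passed the test as higher in ultrasound libraries and no gene passed as lower. The test was limma on log2(FPKM + 1) over 10655 genes, two-sided, with Benjamini-Hochberg adjustment and a threshold of 0.05, and all changes are on that log2 scale. Of all genes tested, 6.55% passed as higher and 1.56% as lower, so 2 of 29 is close to the background. The count of 2 fell to 0 without control 2, control 3, ultrasound 2 or ultrasound 3, fits in which limma called no gene in the whole table. It was 2 without control 1, where 511 of 10568 genes passed as higher. Without ultrasound 1 it was 15, where 33.8% of all genes passed as higher. An unadjusted p under 0.05 was reached by 13 of the 29 in the higher direction and 1, Insig1, in the lower, where the shares of all genes were 22.6% and 8.57%. All 3 ultrasound libraries lay above all 3 controls for 13 of the 29, against 25.9% of all genes, and below them for none of the 29, against 8.96%. Of those 13, 10 are synthesis enzymes, and the others are Insig2, Srebf2 and Soat1. The log2 change was positive for 24 of the 29, or 82.8%, and for 61.7% of all genes. With median-of-ratios scaling, which moves the median of all genes from 0.09 to -0.02, the shares are 75.9% and 47.0%. In the authors' deposited table, 4 of the 29 had a DESeq2 q under 0.05, all higher (Mvd, Fdps, Sqle and Soat1). There the shares were 7.3% higher and 4.98% lower over all 17744 genes listed. Those include genes too low for the limma test, so these shares are not on the same base as the others. Nothing in the labels says that the 3 libraries of a group came from separate animals, so the p-values measure the spread between these libraries, which may be technical.

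**Figure D1:**
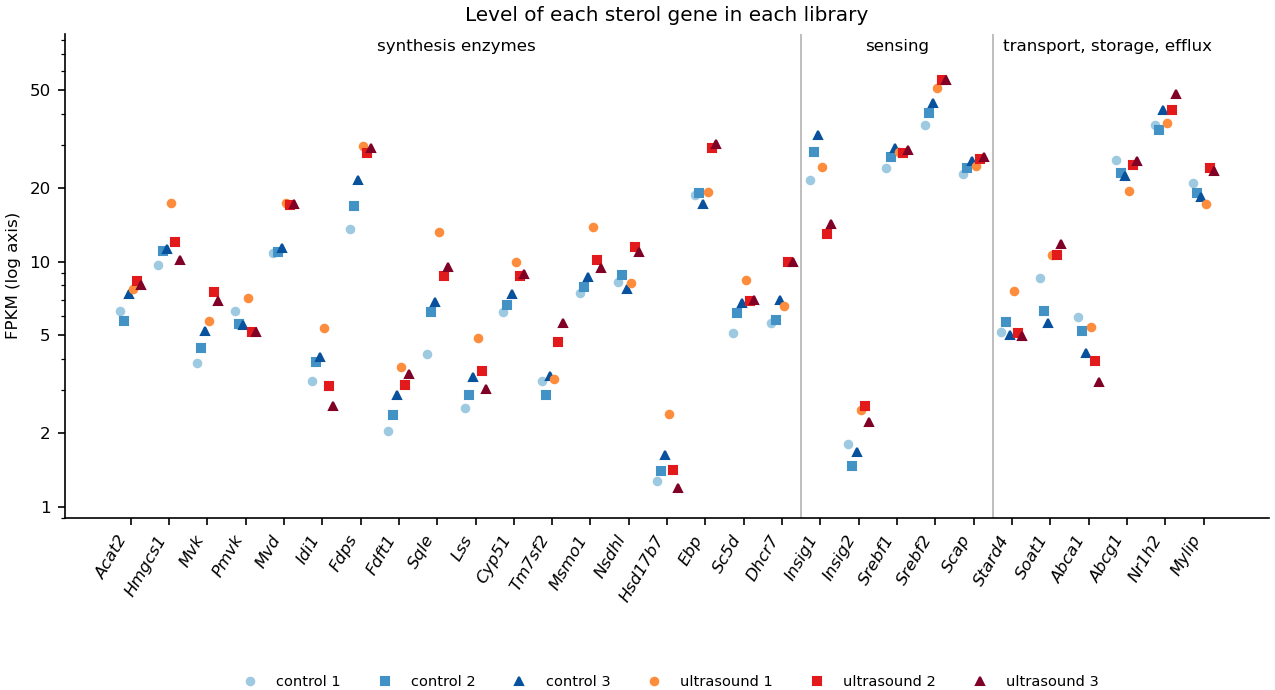
Each point is the FPKM (log axis) of a sterol gene in a library, with the 3 control libraries in blue and the 3 ultrasound libraries in orange to dark red. For Mvd and Fdps the ultrasound points sit together above every control, while for Insig1 ultrasound 2 and 3 at 13.0 and 14.3 FPKM sit below the controls and ultrasound 1 at 24.3 FPKM lies among them.

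Summed over the 18 synthesis enzymes, the level was 118, 128 and 139 FPKM in control 1, 2 and 3 and 184, 179 and 178 FPKM in ultrasound 1, 2 and 3. The group means were 129 ± 10.4 and 180 ± 3.28 FPKM (SD, n = 3 each), and the groups did not overlap. The median log2 change of the 18 was 0.39, beside 0.09 over all genes. Of the 18 changes 16 were positive, where 61.7% of all genes had a positive change. With median-of-ratios scaling the medians were 0.29 for the 18 and -0.02 for all genes. The controls differed among themselves. Control 1 was the lowest control for 13 of the 18 enzymes, or 72.2%, against 37.0% of all genes, and control 3 was the highest for 15, or 83.3%, against 29.6%. This count over controls was made after the values were seen.

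**Figure D2:**
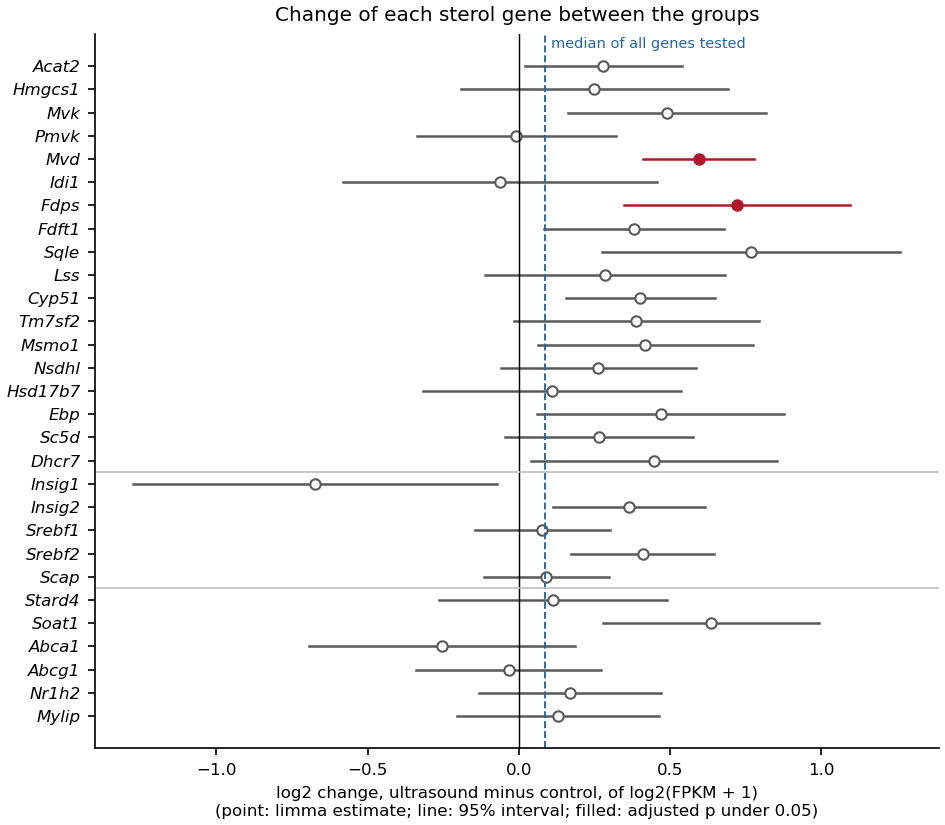
Log2 change of each sterol gene (limma estimate on log2(FPKM + 1), ultrasound minus control) with its 95% interval; filled points have an adjusted p under 0.05 and the dashed line is the median of all genes tested, 0.09. Mvd at 0.60 and Fdps at 0.72 are filled, and Insig1 at -0.67 lies farthest to the left.

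The early pathway, from acetyl-CoA to the isoprenoids, held both genes that passed. Mvd (NCBI Gene 192156, chr8:122433596-122443422, minus strand, GRCm38) makes isopentenyl diphosphate, the building block of isoprenoids, by decarboxylation. Its level was 10.8, 10.9 and 11.4 FPKM in control 1, 2 and 3 and 17.4, 17.0 and 17.1 FPKM in ultrasound 1, 2 and 3. The gap between the groups was wider than the spread within either. The means were 11.0 ± 0.307 and 17.2 ± 0.167 FPKM (SD, n = 3 each), a 1.56-fold difference, and the log2 change was 0.60 with standard error 0.08 and limma adjusted p 0.0297. In GENCODE M21 no exonic base of Mvd lies in another gene. The change passed with median-of-ratios scaling (limma adjusted p 0.0422) and for ultrasound 1 alone against the controls (0.61, limma adjusted p 0.0345). It missed the threshold without control 2, control 3, ultrasound 2 or ultrasound 3, with log2 changes of 0.59, 0.62, 0.60 and 0.60 and limma adjusted p of 0.159, 0.145, 0.0728 and 0.102.

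Fdps (NCBI Gene 110196, chr3:89093588-89101967, minus strand) joins isoprenoid units into farnesyl diphosphate, the branch point between sterols and protein prenylation. It stood at 13.6, 16.9 and 21.5 FPKM in control 1, 2 and 3 and at 29.6, 27.7 and 29.1 FPKM in ultrasound 1, 2 and 3. The ultrasound libraries lay close together, above controls that were spread. The means of 17.3 ± 3.96 and 28.8 ± 0.97 FPKM (SD, n = 3 each) differed 1.66-fold, and the log2 change was 0.72 with standard error 0.16 and limma adjusted p 0.0436. With median-of-ratios scaling the log2 change was 0.60 and limma adjusted p 0.0794, and the call was also lost on leaving out control 1, control 2, control 3, ultrasound 2 or ultrasound 3, with limma adjusted p of 0.0727, 0.18, 0.145, 0.124 and 0.15. In GENCODE M21, 26.7% of the exonic bases of Fdps overlap the same-strand gene Gm43738, and how reads there were counted was not tested.

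The other enzymes of the early pathway did not pass. Mvk, which phosphorylates mevalonate, was at 3.86, 4.43 and 5.20 FPKM in control 1, 2 and 3 and 5.75, 7.50 and 6.89 FPKM in ultrasound 1, 2 and 3. Its groups did not overlap, and its log2 change was 0.49 with limma adjusted p 0.0737. Acat2, the thiolase at the pathway's start, was at 6.29, 5.75 and 7.37 FPKM in controls and 7.76, 8.35 and 8.01 FPKM in ultrasound libraries, a log2 change of 0.28 with limma adjusted p 0.142. Of its 50-base stretches, 39.1% recur in the near-identical gene Acat3, so its level is uncertain. Hmgcs1, which makes HMG-CoA, was at 9.68, 11.0 and 11.3 FPKM in controls and 17.3, 12.0 and 10.2 FPKM in ultrasound 1, 2 and 3. Its highest value, in ultrasound 1, stood above all others, while ultrasound 3 lay among the controls, and its log2 change was 0.25 with limma adjusted p 0.37. Pmvk, which adds the next phosphate after Mvk, was at 6.31, 5.55 and 5.51 FPKM in controls and 7.10, 5.14 and 5.17 FPKM in ultrasound libraries. Idi1, the isomerase of isopentenyl diphosphate, was at 3.26, 3.88 and 4.08 FPKM in controls and 5.34, 3.10 and 2.58 FPKM in ultrasound libraries. Both were higher in ultrasound 1 than in every control and lower in ultrasound 2 and 3 than in every control. Their group changes were -0.01 (limma adjusted p 0.974) and -0.06 (limma adjusted p 0.857). Of the 50-base stretches of Idi1, 25.3% recur in other genes, most of them in Gm13502, so its level too is uncertain.

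Around squalene and lanosterol, 4 enzymes were followed and none passed. Sqle (NCBI Gene 20775, chr15:59315092-59331193, GRCm38), the squalene epoxidase that limits the rate of the later pathway, was at 4.18, 6.21 and 6.86 FPKM in control 1, 2 and 3 and 13.2, 8.72 and 9.51 FPKM in ultrasound 1, 2 and 3. Every ultrasound library lay above every control, and the means were 5.75 ± 1.40 and 10.5 ± 2.42 FPKM (SD, n = 3 each), a 1.82-fold difference. The log2 change of 0.77 with standard error 0.21 had a limma adjusted p of 0.067. The authors' deposited table gives Sqle a log2 fold change of 0.74 and a q of 0.0495. Cyp51, which demethylates lanosterol, was at 6.21, 6.66 and 7.41 FPKM in controls and 10, 8.77 and 8.93 FPKM in ultrasound libraries, a log2 change of 0.40 with limma adjusted p 0.0604. Fdft1, the squalene synthase, was at 2.04, 2.36 and 2.87 FPKM in controls and 3.70, 3.15 and 3.47 FPKM in ultrasound libraries, a log2 change of 0.38 with limma adjusted p 0.102. Neither of these overlapped between the groups. The exons of Fdft1 overlap the antisense gene Ctsb over 18.3% of their bases, and whether counting used strand is not stated. Lss, the lanosterol synthase, was at 2.54, 2.87 and 3.37 FPKM in controls and 4.89, 3.59 and 3.01 FPKM in ultrasound 1, 2 and 3. Ultrasound 3 lay among the controls, and the log2 change of Lss was 0.29 with limma adjusted p 0.27.

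The late enzymes, which turn lanosterol into cholesterol, split by which ultrasound library was high, a split that is common in the whole table. Over all genes tested, ultrasound 1 was the highest ultrasound library for 41.3% and the lowest for 47.4%. Msmo1, an oxidase of sterol methyl groups, was at 7.45, 7.86 and 8.69 FPKM in controls and 13.8, 10.2 and 9.42 FPKM in ultrasound 1, 2 and 3. Sc5d, a sterol desaturase, was at 5.10, 6.19 and 6.80 FPKM in controls and 8.40, 6.93 and 6.96 FPKM in ultrasound libraries. Hsd17b7, a sterol ketone reductase and the lowest of the 29, was at 1.27, 1.40 and 1.63 FPKM in controls and 2.39, 1.41 and 1.19 FPKM in ultrasound libraries. These were highest in ultrasound 1. The other late enzymes were lower in ultrasound 1 than in ultrasound 2 and 3. Ebp, a sterol isomerase, was at 18.7, 19.0 and 17.1 FPKM in controls and 19.3, 29.0 and 30.2 FPKM in ultrasound 1, 2 and 3. Dhcr7, a sterol reductase of the last step, was at 5.61, 5.80 and 6.99 FPKM in controls and 6.59, 9.98 and 9.92 FPKM in ultrasound libraries. Ultrasound 1 lay within the range of the controls for Dhcr7 and just above it for Ebp. Tm7sf2, also a sterol reductase, was at 3.26, 2.86 and 3.43 FPKM in controls and 3.32, 4.72 and 5.61 FPKM in ultrasound libraries. Nsdhl, a sterol dehydrogenase, was at 8.24, 8.80 and 7.72 FPKM in controls and 8.21, 11.5 and 10.9 FPKM in ultrasound libraries. None of these 7 passed, with log2 changes of 0.42 for Msmo1, 0.26 for Sc5d, 0.11 for Hsd17b7, 0.47 for Ebp, 0.45 for Dhcr7, 0.39 for Tm7sf2 and 0.26 for Nsdhl. Their limma adjusted p were 0.118, 0.21, 0.686, 0.125, 0.135, 0.171 and 0.225 in that order.

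**Figure D3:**
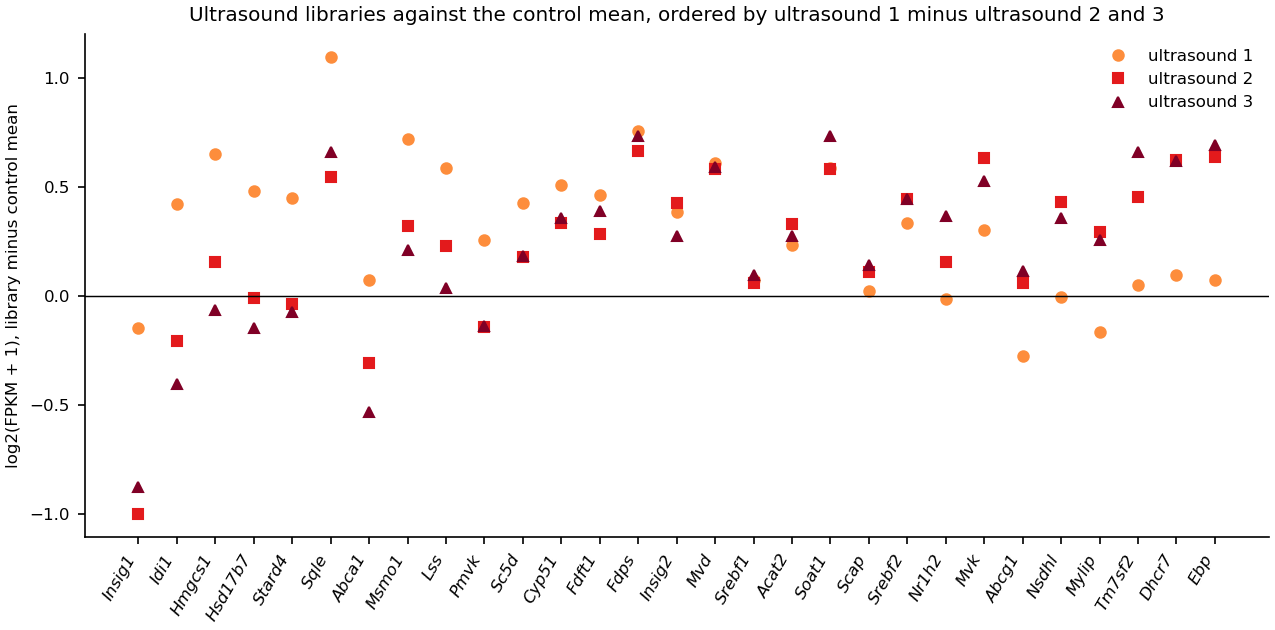
Points give log2(FPKM + 1) of each ultrasound library minus the mean of the 3 controls for each sterol gene, ordered from those highest in ultrasound 1 relative to ultrasound 2 and 3 (left) to those lowest (right). Mvd and Fdps lie near the middle with the 3 points together above 0, Insig1 is at the left end and Ebp at the right.

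Set against the mean of ultrasound 2 and 3, ultrasound 1 was over 1.2-fold higher for 8 of the 18 synthesis enzymes, or 44.4%, and over 1.2-fold lower for 5, or 27.8%. Over all genes tested the shares were 27.8% and 30.4%. The ratio was 1.88 for Idi1, 1.84 for Hsd17b7, 1.57 for Hmgcs1, 1.45 for Sqle, 0.66 for Dhcr7, 0.65 for Ebp and 0.64 for Tm7sf2. It was 1.02 for Mvd and 1.04 for Fdps, the genes that passed. These are ratios with 1 library on one side, so they carry no test. Without ultrasound 1, 15 of the 29 genes passed as higher and 2 as lower, against 33.8% and 19.9% of all 10497 genes tested. The 15 were Acat2, Mvk, Mvd, Fdps, Sqle, Cyp51, Tm7sf2, Msmo1, Nsdhl, Ebp, Dhcr7, Insig2, Srebf2, Soat1 and Mylip, and the 2 lower were Insig1 and Abca1. For ultrasound 1 alone against the 3 controls, with the spread pooled from the other libraries, Mvd and Msmo1 passed as higher (0.61 and 0.72, limma adjusted p 0.0345 and 0.0393), where 0.967% of all genes passed as higher and 0.441% as lower. These fits share the control libraries, so their lists are not independent of each other. The neutrophil sum was highest and the B cell sum lowest in ultrasound 1, and the mitochondrial share was lower in ultrasound 2 and 3. The 3 neutrophil markers that passed, Csf3r, Cxcr2 and Mmp9, were lower in ultrasound 1 than in ultrasound 2 and 3. The part of these differences in the splits was not tested.

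**Figure D4:**
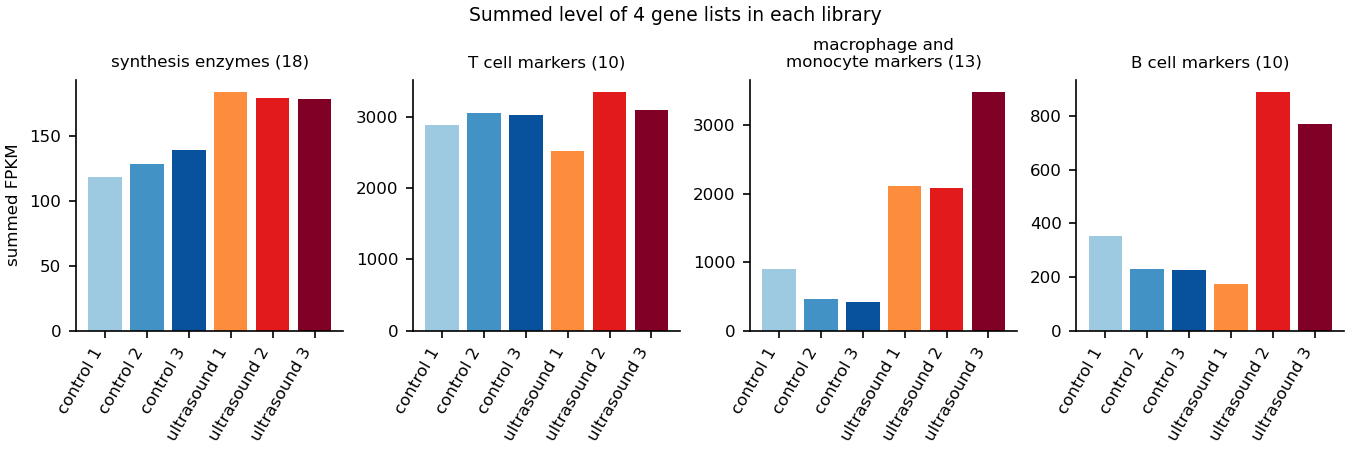
Bars give the FPKM summed over the 18 synthesis enzymes and over 3 marker lists in each of the 6 libraries, each panel with its own axis from 0. The synthesis sum is 118 to 139 in controls and 178 to 184 in ultrasound libraries, the macrophage and monocyte sum is above every control in each ultrasound library, and the B cell sum is highest in ultrasound 2 and 3.

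Of the 5 sensing genes none passed limma's adjusted threshold, and 3 had an unadjusted limma p under 0.05, 2 higher and 1 lower. Of all genes tested, 22.6% had such a p in the higher direction and 8.57% in the lower. The 2 Insig genes, whose products hold Scap in the endoplasmic reticulum, had changes of opposite sign. Insig1 (NCBI Gene 231070, chr5:28071412-28078662, GRCm38), itself a well known Srebf target, was at 21.5, 27.9 and 32.7 FPKM in control 1, 2 and 3 and 24.3, 13.0 and 14.3 FPKM in ultrasound 1, 2 and 3. Ultrasound 1 lay among the controls, and ultrasound 2 and 3 lay below all of them. The means were 27.4 ± 5.59 and 17.2 ± 6.20 FPKM (SD, n = 3 each), and the log2 change was -0.67 with standard error 0.25 and limma adjusted p 0.13. Without ultrasound 1 it was -0.94 with limma adjusted p 0.00633. Insig2 was low, at 1.81, 1.47 and 1.68 FPKM in controls and 2.47, 2.57 and 2.21 FPKM in ultrasound libraries. Its groups did not overlap, and its log2 change was 0.36 with limma adjusted p 0.0799.

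Srebf2 (NCBI Gene 20788, chr15:82147269-82205379, GRCm38), the factor that chiefly drives sterol synthesis, was the most abundant of the 29 in controls. It was at 36.2, 40.3 and 44.4 FPKM in control 1, 2 and 3 and 51.0, 55.1 and 55.1 FPKM in ultrasound 1, 2 and 3. The groups did not overlap, and the means were 40.3 ± 4.09 and 53.8 ± 2.37 FPKM (SD, n = 3 each). The log2 change was 0.41 with standard error 0.10 and limma adjusted p 0.0529, just outside the threshold, and 0.29 with median-of-ratios scaling. Srebf1, which chiefly drives fatty acid synthesis, was at 24.0, 26.6 and 29.1 FPKM in controls and 28.0, 27.7 and 28.5 FPKM in ultrasound libraries. Scap, the escort, was at 22.7, 24.0 and 25.8 FPKM in controls and 24.5, 26.1 and 26.7 FPKM in ultrasound libraries. The groups overlapped for both, and the log2 changes were 0.08 (95% interval -0.15 to 0.30) and 0.09 (-0.12 to 0.30), which become -0.04 and -0.03 with median-of-ratios scaling. In control means the order was Srebf2 at 40.3, Insig1 at 27.4, Srebf1 at 26.6 ± 2.55, Scap at 24.2 ± 1.52 and Insig2 at 1.65 ± 0.169 FPKM. The control ranges of Insig1, Srebf1 and Scap overlapped. Within each control library Srebf1 lay above Scap, while Insig1 lay below both in control 1 and above both in control 2 and 3.

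Among the 6 genes of transport, storage, uptake control and efflux, none passed limma's adjusted threshold and 1, Soat1, had an unadjusted limma p under 0.05. Of all genes tested, 22.6% had such a p in the higher direction and 8.57% in the lower. Soat1 (NCBI Gene 20652, chr1:156428108-156474328, GRCm38) esterifies cholesterol for storage in lipid droplets. It was at 8.55, 6.29 and 5.60 FPKM in control 1, 2 and 3 and 10.6, 10.6 and 11.8 FPKM in ultrasound 1, 2 and 3. All ultrasound libraries lay above all controls, with means of 6.81 ± 1.54 and 11.0 ± 0.715 FPKM (SD, n = 3 each). The log2 change was 0.64 with standard error 0.15 and limma adjusted p 0.0501, and the authors' deposited table gives 0.57 with a q of 0.0367. Control 1, which had the highest Soat1 among the controls, also had the highest macrophage and monocyte sum among them (903 FPKM), and the part of those cells in the Soat1 values was not tested.

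The exporters did not pass. Abca1, which moves cholesterol onto apolipoproteins, was at 5.94, 5.23 and 4.24 FPKM in controls and 5.42, 3.94 and 3.22 FPKM in ultrasound libraries, a log2 change of -0.25 with limma adjusted p 0.359. Without ultrasound 1 the change of Abca1 was -0.42 with limma adjusted p 0.038. Abcg1, which exports sterol to lipoprotein particles, was at 26.0, 23.0 and 22.3 FPKM in controls and 19.4, 24.8 and 25.8 FPKM in ultrasound 1, 2 and 3. The sign of its change turned on single libraries: it was -0.03 in all (limma adjusted p 0.871) and 0.09 without ultrasound 1. Nr1h2, the liver X receptor beta, was at 36.0, 34.3 and 41.4 FPKM in controls and 36.8, 41.5 and 48.2 FPKM in ultrasound libraries. Mylip, a liver X receptor target whose product marks lipoprotein receptors for degradation, was at 20.9, 19.1 and 18.4 FPKM in controls and 17.2, 24.0 and 23.4 FPKM in ultrasound libraries. Stard4, a soluble sterol carrier, was at 5.14, 5.66 and 5.01 FPKM in controls and 7.56, 5.12 and 4.95 FPKM in ultrasound libraries. The groups overlapped for all 3, with log2 changes of 0.17 for Nr1h2, 0.13 for Mylip and 0.11 for Stard4 and limma adjusted p of 0.369, 0.533 and 0.631. Ultrasound 1 was the highest library for Stard4 and the lowest for Mylip and Abcg1.

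Other genes of sterol and lipid metabolism were read from 5 further lists of 87 genes, of which 86 were listed and 75 tested. Of the 75, 15 passed as higher and 1 as lower, where the shares of all genes were 6.55% and 1.56%, with a median log2 change of 0.25 beside 0.09 for all genes. Under median-of-ratios scaling the count of higher genes was 5 and the median 0.13. With that scaling 280 of 10654 genes passed as higher in the whole table, and the median of all genes was -0.02. The counts changed when single libraries were left out, as they did over the whole table. Without ultrasound 1, 39 passed as higher and 9 as lower, where 33.8% and 19.9% of all genes passed. None passed without control 2, control 3, ultrasound 2 or ultrasound 3, and in those fits limma called no gene in the whole table.

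The counts in each list stand beside the same shares of all genes, 6.55% higher and 1.56% lower. Among 16 isoprenoid and other sterol enzymes, 3 rose and 13 did not pass, with a median log2 change of 0.11. Erg28, a scaffold of late sterol enzymes, was at 8.16, 8.06 and 8.11 FPKM in control 1, 2 and 3 and 10.9, 15.2 and 14.4 FPKM in ultrasound 1, 2 and 3. Every ultrasound library lay above every control, and the log2 change was 0.66 with standard error 0.13 and limma adjusted p 0.0377. Aacs, which makes acetoacetyl-CoA in the cytosol, rose by 0.63 (limma adjusted p 0.0319). Of 13 genes of Srebf processing and sterol-dependent degradation, 3 rose: Erlin1 by 0.64, Erlin2 by 0.59 and Tmem97 by 0.39, with limma adjusted p of 0.0481, 0.0389 and 0.0475. Erlin1 and Erlin2 form a complex of the endoplasmic reticulum that takes part in the degradation of sterol-regulated proteins. The median of that list was 0.06, below the 0.09 of all genes. In fatty acid synthesis, 2 of 13 rose, the desaturase Fads1 by 0.64 (limma adjusted p 0.0402) and the elongase Elovl1 by 0.60 (limma adjusted p 0.0464), with a list median of 0.26.

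The widest changes lay in the lists of efflux and of lysosomal release, transport and oxysterols. Of 14 liver X receptor partners, targets and efflux genes, 4 rose and 10 did not pass, where 6.55% of all genes passed as higher and 1.56% as lower, with a median log2 change of 0.56. Scarb1, a receptor that exchanges cholesterol with lipoproteins, was at 8.67, 5.76 and 5.41 FPKM in controls and 15.4, 15.3 and 22.5 FPKM in ultrasound libraries, a log2 change of 1.30 with limma adjusted p 0.0305. Plin2, a coat protein of lipid droplets, rose by 1.29 (limma adjusted p 0.0311), Rxra, the partner of liver X receptors, by 0.67 (limma adjusted p 0.0304), and Lpcat3 passed as well. Nr1h3, the liver X receptor alpha, did not pass, with a log2 change of 1.02 and limma adjusted p 0.0508. Of 19 genes of lysosomal release, transport, storage and oxysterols, 3 rose and 1 fell, with a median of 0.33. Lrp1, a large endocytic lipoprotein receptor, was at 8.86, 4.46 and 3.81 FPKM in controls and 31.1, 15.5 and 30.3 FPKM in ultrasound 1, 2 and 3, a log2 change of 2.0 with limma adjusted p 0.0311. Hsd3b7, an enzyme of bile acid synthesis, rose by 0.87 (limma adjusted p 0.0409), and the lysosomal lipase Lipa also passed. Gpr183, a receptor for oxysterols that guides immune cells, fell: it was at 34.6, 34.3 and 36.1 FPKM in controls and 20.1, 22.5 and 22.8 FPKM in ultrasound libraries, a log2 change of -0.66 with limma adjusted p 0.0297. Scarb1, Plin2, Nr1h3 and Lrp1 were highest among the controls in control 1, as the macrophage and monocyte sum was, and the part of those cells in these lists was not tested.

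**Figure D5:**
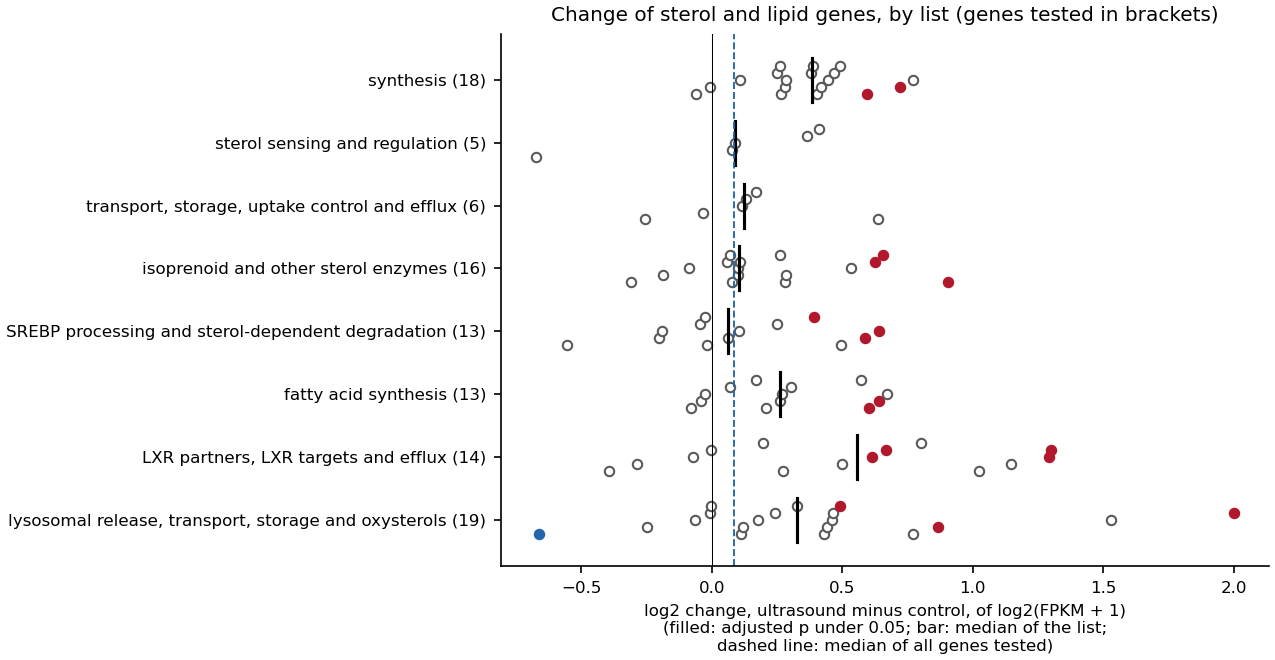
Each point is the log2 change (limma estimate on log2(FPKM + 1), ultrasound minus control) of a tested gene, by list; filled points have an adjusted p under 0.05, red higher and blue lower, and bars are list medians. The synthesis list has a median of 0.39, the liver X receptor and efflux list reaches 1.30 with Scarb1, and Lrp1 at 2.0 is the farthest point.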

How the data were processed

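RNA-seq libraries of sorted splenic CD8 T cells, 3 control and 3 ultrasound, were grouped by sample title. Per the submitters' processing notes, the authors used HISAT2, HTSeq, DESeq2 and R 3.2.0 with build mm10. Strand settings and versions of the other tools are not given in the sources used here. The authors deposited FPKM values per library. Per the file headers, a signal column set holds means of DESeq2 normalized counts, the fold change is a ratio of group means, and the log2 fold change and the p-value and q-value come from the authors' DESeq2 comparison.

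Whole reads were recovered from the FPKM and deposited means. The check covered only low read numbers, where 100% of 31862 values lay within 0.05 of a whole number. The reads of the sterol genes lie above that range. Reads carry no molecular identifiers. Each of 10655 genes that reached an FPKM of 1 in 3 or more libraries was fitted as log2(FPKM + 1) in limma 3.58.1 under R 4.3.3, with the trend and robust options, after a check on simulated data. The scale understates changes of low genes. Scripts ran in Python 3.11.15 with numpy 2.4.6, pandas 2.3.3 and matplotlib 3.10.9. Alternatives covered scaling, pseudocount 0.1, filters, the robust option, voom on recovered reads, the authors' comparison, a replicate block, a term for ultrasound 2 and 3, thresholds and each library left out.

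Coordinates and overlaps are from GENCODE M21 and promoter windows from RefSeq, both on GRCm38. All 29 genes are named, and in each related list the 3 largest changes among genes that passed, of which 1 is not reported here; Nr1h3, Lpcat3 and Lipa were named after their values were seen. The genes and lists were chosen with earlier results of these data known.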

Additional observations from a re-analysis of the deposited data

How the results depend on the processing

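Of 464 values of the 29 genes over 16 alternatives, 404 kept their direction and side of the threshold, 20 passed it newly, 17 lost it and 23 changed sign, in 11 genes. Part of the 404 was fixed in advance, so the tally does not measure stability. The changed filters, the robust option and the replicate block left each log2 change as it was, so no sign could change there. Where a fit called no gene in the whole table, a gene that had not passed could only stay so. The count of sterol genes called higher (2) was 1 with median-of-ratios scaling, upper-quartile scaling or voom, 0 without a filter on low values or with a replicate block, 4 in the authors' deposited table, 8 at adjusted p under 0.1 and 0 at 0.01. Leaving out 1 library gave 0 to 15: 15 without ultrasound 1, 2 without control 1 and 0 without control 2, control 3, ultrasound 2 or ultrasound 3. The count called lower (0) ranged from 0 to 2, with 2 without ultrasound 1. Related genes called higher (15) were 5 with median-of-ratios or upper-quartile scaling or voom, 0 without a filter, with the replicate block, with the term for ultrasound 2 and 3 or at 0.01, 23 at 0.1, and 0 to 39 with 1 library left out (39 without ultrasound 1, 0 without control 2, control 3, ultrasound 2 or ultrasound 3). Related genes called lower (1) were 2 with voom or in the authors' deposited table, 0 without a filter, with the block or at 0.01, and 0 to 9 with 1 library left out (9 without ultrasound 1). Without a filter, with the block and without any of those 4 libraries, limma called no gene in the whole table, although the number of genes with an unadjusted p under 0.05 was 4216 without a filter, 3249 with the block, and 1945, 2137, 1971 and 1913 without control 2, control 3, ultrasound 2 and ultrasound 3.

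Libraries of the same replicate number showed little shared deviation from their group means (correlations -0.04, 0.05 and 0.06). The labels do not say whether they were paired, and these correlations cannot decide it, so the block is only an alternative. Sign changes with the term for ultrasound 2 and 3 were Pmvk 0.26, Idi1 0.42, Nsdhl -0.0054, Abca1 0.073, Nr1h2 -0.013 and Mylip -0.16. With median-of-ratios scaling, upper-quartile scaling, voom and the authors' table, Srebf1 gave -0.043, -0.031, -0.045 and -0.049 and Scap -0.030, -0.018, -0.031 and -0.032. With 1 library left out, the range was -0.14 to 0.06 for Pmvk, -0.30 to 0.11 for Idi1, -0.077 to 0.24 for Hsd17b7, -0.054 to 0.21 for Stard4 and -0.11 to 0.088 for Abcg1. The cause was not tested. Groups of 3 libraries limit the precision of every value.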

Other observations

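Pathway annotations carried by the authors' deposited table were read after the data were seen, and they hold many of the same genes. Over all genes tested, 61.7% of log2 changes were positive and 6.55% of genes passed as higher. Under the KEGG term for steroid biosynthesis, 16 genes were tested and all 16 had a positive log2 change, with a median of 0.41 beside 0.09 over all genes, and 2 passed as higher, Lipa among them. Without ultrasound 1, 12 of those 16 passed as higher, where 33.8% of all genes did. Under the Reactome term for cholesterol biosynthesis, 22 of 26 changes were positive, the median was 0.28, and 3 passed as higher, Fdps and Mvd among them. Under the KEGG term for terpenoid backbone synthesis, 14 of 19 changes were positive with a median of 0.10, and Fdps, Mvd and Pcyox1, an enzyme that breaks down prenylated cysteines, passed. Under the KEGG term for peroxisomes, organelles of fatty acid oxidation, 51 of 61 changes were positive with a median of 0.22, and 6 genes passed as higher: Abcd2, Acsl1, Crat, Idh1, Mpv17l2 and Xdh.

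Ch25h, which makes an oxysterol that is turned into the Gpr183 ligand, was too low to be tested. It had 14, 9 and 12 reads in control 1, 2 and 3 and 7, 0 and 2 reads in ultrasound 1, 2 and 3.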
